A study of Mus musculus with 6 samples.

Results

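The genes described here are 38 receptors and structural components of the basement membrane: 20 matrix receptors (18 integrin subunits and the discoidin domain receptors Ddr1 and Ddr2) and 18 basement membrane proteins. They were chosen by name, as probe sets whose platform annotation gives 1 of these symbols alone, with the brightest probe set (by mean log2 signal) standing for its gene. Of the 38, 37 had such a probe set among the 18194 genes of the array, the exception being Itga11, and 26 passed the filter on dim genes (a geometric mean signal of at least 60.2 over the 6 arrays), along with 10916 genes in all. The 26 comprised 12 receptors and 14 ligands. The cells were ovarian surface epithelial cells of mouse tumours on a mixed strain background, freed with trypsin, grown in a dish and used unpassaged. All 6 sample titles carry the prefix P/K, which the labels do not spell out. The 3 groups of 2 arrays differed in p53: wild-type p53 (both from animals of 9 weeks), wild-type p53 together with the R172H mutation (heterozygous, 9 and 12 weeks), and homozygous R172H (both 4 weeks), so that homozygosity and age cannot be told apart. Another label field of the homozygous samples gives a relative of p53 instead, and the titles were followed. The labels do not say for every pair whether the arrays came from separate animals, in which case p-values measure only the spread between these samples.

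A basement membrane is a thin sheet of matrix under epithelia and around vessels and muscle. It is built from a laminin network and a collagen IV network, which nidogens and the heparan sulfate proteoglycans perlecan and agrin connect. Cells hold on to it through integrins, which pair 1 alpha with 1 beta subunit, and through dystroglycan, while the discoidin domain receptors are tyrosine kinases that triple-helical collagens activate. The ovarian surface epithelium rests on such a sheet, which separates it from the stroma.

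The homozygous arrays differed from the others and from each other. The SD of the log2 difference over all tested genes was 1.30 between the homozygous arrays, 0.59 between the wild-type and 0.55 between the heterozygous arrays, and 0.31 between wild-type array 2 and heterozygous array 1. Median signals ranged from 41.1 to 60.6, and the background level, taken as the highest value of a bacterial control, was 24.5. The labels name ovarian surface epithelium, and of 16 markers of that layer, among them Upk1b, Krt8 and Wt1, 0 were under background in both homozygous arrays and 0 in all of the other 4. In 1 homozygous array each, Epcam (22.2, array 2), Aldh1a2 (1.06, array 1) and Cdh1 (20.3, array 1) were under background. Epcam was at 27.6 in array 1, just above it. Both homozygous arrays lay below all 4 others for 13 of the 16. For 2 markers a single array did, and for 1, Krt18, they lay on opposite sides. Among the 13, Krt7 had 60.5 and 1729 in homozygous arrays against 11838 to 17717 in the others. Igfbp5 had 30.65 and 1258 against 17599 to 21675. The summed signal of the 16 was between 174396 and 233106 in the wild-type and heterozygous arrays and 60394 and 78518 in the homozygous arrays. Of the 60394 in array 1, Krt18 made up 25436.

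Homozygous cells had about 6 times the signal of Ddr2, the only member whose difference passed the test. Itgb8, Itga7, Agrn and Lamb2, among others, were lower in both homozygous arrays than in all others, but did not pass. Against wild-type cells 1 of the 26 tested members was called by limma at an adjusted p under 0.05, Ddr2, which was higher, and 0 were called lower. Over all 10916 genes 2.67% were called, 0.412% higher and 2.25% lower. Against heterozygous cells the count was again 1 of 26, Ddr2, against 4.09% of all genes, 0.87% higher and 3.22% lower. Both comparisons use the same homozygous arrays. Arrays of the homozygous and wild-type groups did not overlap for 12 of 26 members, against 61.2% of all genes, and those of the homozygous and heterozygous groups for 13 of 26, against 62.5%. These shares of members were not above those of all genes.

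No member passed the test between heterozygous and wild-type cells. Limma called 0 of the 26 members and 0% of all genes, while 71 of 10916 genes and 0 members had an unadjusted p under 0.05. The median log2 difference of the 26 members was 0.04, and of all genes 0.00. Arrays did not overlap for 8 of 26 members, against 26% of all genes. For Ddr2, the difference was 0.32 with a 95% interval from -0.29 to 0.94, and for Itgb8 -0.39 with an interval from -1.72 to 0.93, so that differences of 2-fold or more in Itgb8 were not excluded at this number of arrays.

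In homozygous against wild-type cells the median log2 difference was -0.32 over the 12 receptors and -0.62 over the 14 ligands, beside -0.09 over all genes. Of the receptors 4 were positive and 8 negative, and of the ligands 4 and 10. With the arrays centred on their medians the median of all genes moved to 0.28, that of the receptors to 0.05 with 6 positive and 6 negative, and that of the ligands to -0.25. With quantile normalization the receptor median was -0.46 (3 positive, 8 negative) and the ligand median -0.59, beside -0.01 for all genes. The sign of the receptor median thus depends on the scaling, while it stayed below the median of all genes in each. Without rescaling, the medians against heterozygous cells were -0.34 for receptors and -0.74 for ligands, beside -0.08 for all genes. With centred arrays they were -0.04 (6 positive, 6 negative) and -0.45, beside 0.21 for all genes.

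Of the 26 tested members, 5 had both homozygous arrays beyond all 4 other arrays and differed by at least 1 on the log2 scale from each group: 2 higher (Ddr2 and Itgb3) and 3 lower (Itga7, Itgb8 and Lamb2). Of all genes 6.82% met this higher and 14.3% lower, so the 3 of 26 members that were lower were not above the share of all genes. Itgb3 passed the filter on dim genes only through homozygous array 1 and so had to differ. That leaves Ddr2 as the 1 higher member to set beside the 6.82%. After quantile normalization Lamb2 no longer met it and Itgb3 was not tested, and with centred arrays Lamb2 dropped out and Itga5 came in. With wild-type array 2 and heterozygous array 1 left out, 5 members met it lower, Itgb5 and Nid2 being added.

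**Figure D1:**
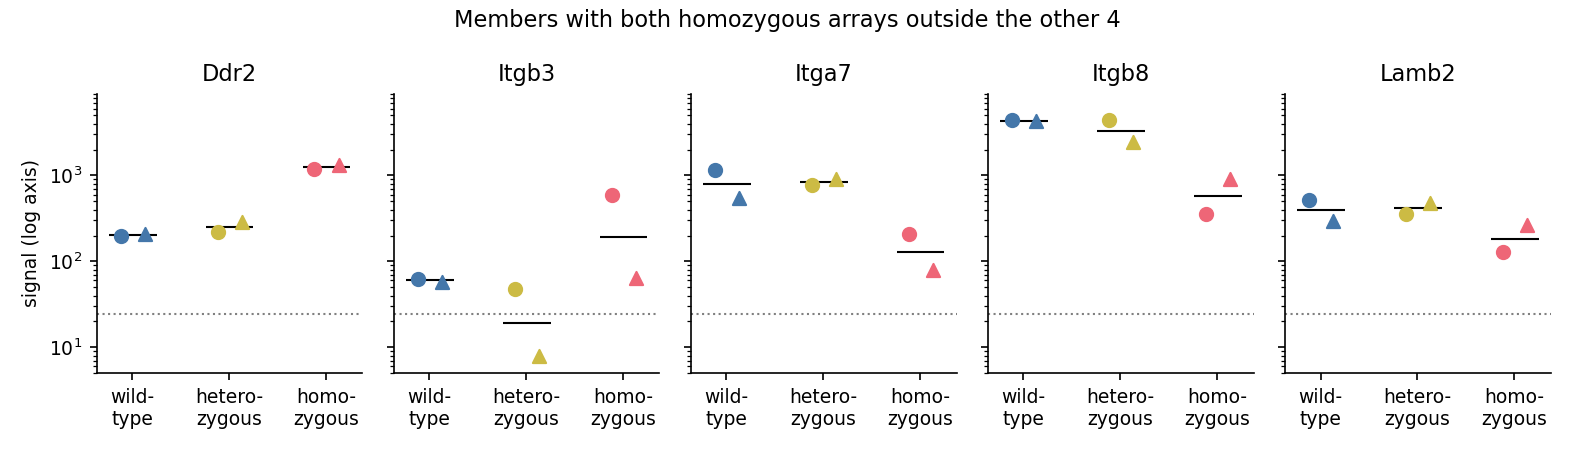
Signals (log axis) of the 5 members whose homozygous arrays both lay beyond the other 4, by p53 group; circles are replicate 1, triangles replicate 2, bars the geometric mean of the 2 arrays, and the dotted line the background level of 24.5. Ddr2 lies at 1203 and 1328 in homozygous arrays and between 198 and 290 elsewhere, whereas the Itgb3 points of the homozygous pair lie far apart.

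Among the receptors of collagen, Ddr2 rose in homozygous cells. Ddr2 encodes a discoidin domain receptor found mainly in mesenchymal cells and best known as a receptor of fibrillar collagens. Its signal was 198 and 207 in wild-type, 221 and 290 in heterozygous, and 1203 and 1328 in homozygous arrays. Both homozygous values were above all others, and the homozygous pair differed little. The rise was 2.64 ± 0.24 (SE) on the log2 scale against wild-type cells, or 6.24-fold (adjusted p = 0.0177, limma, n = 2 arrays a group), and 2.32 ± 0.24, or 5.00-fold, against heterozygous cells (adjusted p = 0.0226, limma). A second, dimmer probe set of Ddr2 had 103 and 45.1 in wild-type, 117 and 15.4 in heterozygous, and 370 and 241 in homozygous arrays, also highest in the homozygous pair. The call ended with the mean of both probe sets (adjusted p = 0.0753 against wild-type and 0.0622 against heterozygous cells, limma), with no filter on dim genes (0.0609 and 0.0769), with the replicate number as a block (0.0591 and 0.0597), with only the compared groups (0.0849 and 0.0887), and without any 1 of the wild-type and heterozygous arrays (0.0849 to 0.187). It also ended with wild-type array 2 and heterozygous array 1 left out together (0.436 and 0.396). The call was kept in 7 of 16 alternatives in each comparison, and the log2 difference stayed between 2.12 and 3.01 in all 16. Of 9 fibroblast and mesenchymal markers, Col1a2 and Fn1 also had both homozygous arrays above all others, and 2 had both below. For 3 they lay on opposite sides of the others, for 1 within their range, and for 1 a single array was below it. Of the 9 differences from wild-type cells 4 were positive and 5 negative, with a median of -2.07. The summed signal of the 9 was 69125 in homozygous array 1 and 143734 in array 2, against 89104 to 101360 elsewhere. The part of such cells in the Ddr2 result was not tested.

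RefSeq (GRCm38.p6) start windows matched 29 of the 38 members by symbol, the others being Itga6, Itga7, Itgb4, Itgb3, Lama1, Lama3, Lama4, Lamc1 and Nid2. The 250 bases before the annotated start are shown for the called member Ddr2, at chr1:170088945-170089194 on the minus strand, and, for contrast, for Itgb8, at chr12:119238277-119238526 on the minus strand, the tested member with the most negative difference from wild-type cells. Capitals mark matches to CACCTG (an E-box bound by zinc finger repressors of epithelial genes), TGANTCA (AP-1), GGGCGG (GC box), CCAAT or the p53 half-site consensus, searched on both strands. No match overlaps another.
Ddr2: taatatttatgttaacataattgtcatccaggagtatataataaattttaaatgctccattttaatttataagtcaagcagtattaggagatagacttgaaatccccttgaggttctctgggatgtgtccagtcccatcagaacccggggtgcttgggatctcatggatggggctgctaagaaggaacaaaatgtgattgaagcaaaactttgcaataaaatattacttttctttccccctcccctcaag
Itgb8: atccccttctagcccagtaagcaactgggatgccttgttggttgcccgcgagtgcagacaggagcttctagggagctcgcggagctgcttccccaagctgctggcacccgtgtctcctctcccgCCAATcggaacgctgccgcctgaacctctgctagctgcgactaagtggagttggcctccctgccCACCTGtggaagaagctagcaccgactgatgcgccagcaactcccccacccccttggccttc

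The Ddr2 window held 0 matches to the 5 motifs. That of Itgb8 held a CACCTG, which starts 62 bases before the gene's start, and a CCAAT, 126 bases before it. Of 32851 windows of this length in RefSeq, 17.2% held CACCTG, 33.8% CCAAT, 32.7% GGGCGG, 6.75% TGANTCA and 7.13% the p53 half-site.

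The other collagen receptors did not pass. Ddr1, the discoidin receptor of epithelial cells, which also binds collagen IV, was at 27566 and 25573 in wild-type, 21569 and 20458 in heterozygous, and 10887 and 19630 in homozygous arrays. Both homozygous values lay below all others, the second by little, and the difference from wild-type cells was -0.86 ± 0.34 (adjusted p = 0.168, limma). The differences of the 2 discoidin receptors thus had opposite signs. Itga1, the alpha subunit of the collagen IV receptor α1β1, had 123 and 251 in wild-type, 228 and 394 in heterozygous, and 23.4 and 140 in homozygous arrays. The first homozygous array was under background and the second within the range of the wild-type pair, and the difference from wild-type cells was -1.62 ± 0.91 (adjusted p = 0.290, limma; -1.59 with signals raised to background). Itga2, of the related receptor α2β1, was below the filter, with signals between 34.6 and 61.2 in all 6 arrays. Itgb1, the beta subunit that α1β1, α2β1 and most laminin receptors share, ranged from 2789 to 4270. Its difference from wild-type cells was -0.14 ± 0.26, with a 95% interval from -0.80 to 0.52.

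**Figure D2:**
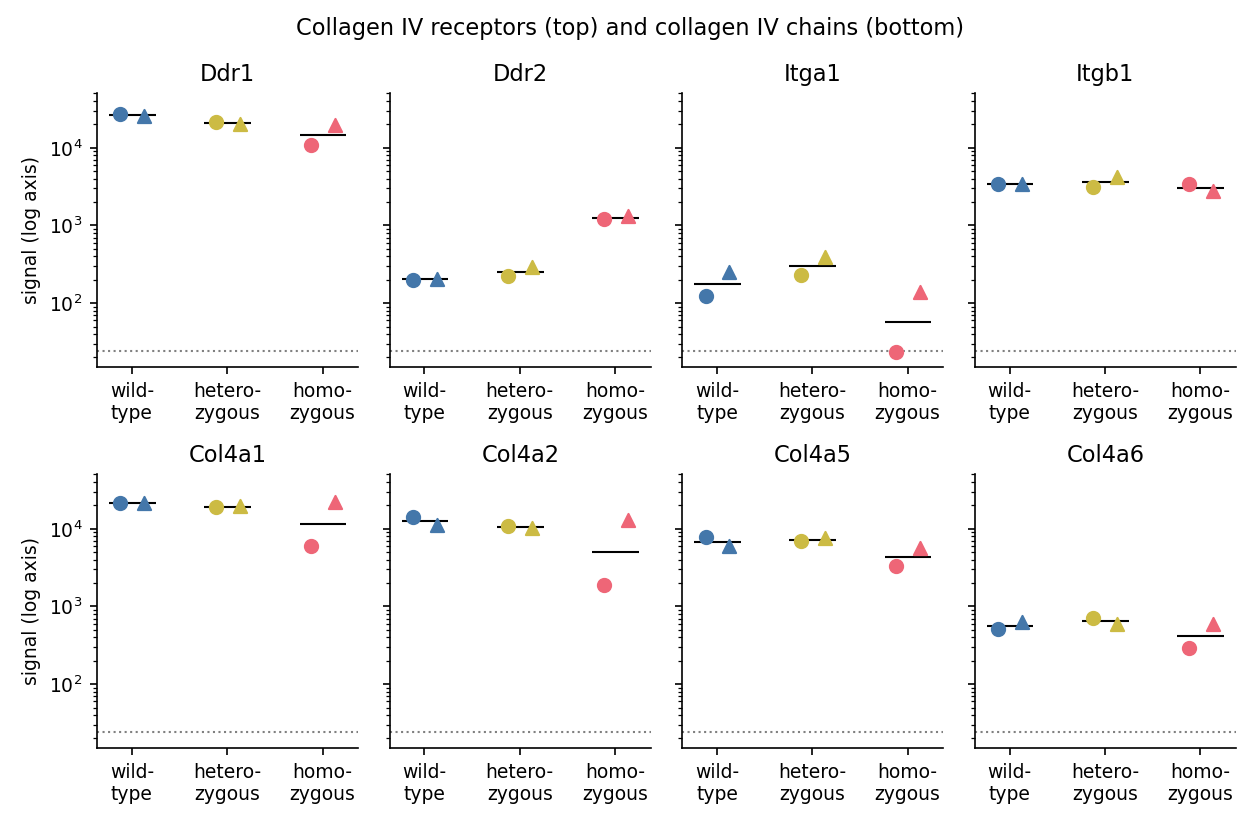
Signals (log axis) of the tested collagen receptors, with Itgb1, the partner of Itga1 (top), and of the collagen IV chains (bottom) by p53 group; circles are replicate 1, triangles replicate 2, bars geometric means, the dotted line background. Ddr2 is best known as a receptor of fibrillar collagens. Ddr2 is high in both homozygous arrays, while Col4a1 and Col4a2 are low in homozygous array 1 alone, at 6061 and 1917.

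Among the collagen IV chains, homozygous array 1 had the lowest value of each, and array 2 did not share it in 3 of the 4. Col4a1 and Col4a2 encode the chains of the common α1α1α2 network. Col4a1 had 21329 and 21454 in wild-type, 18855 and 19518 in heterozygous, and 6061 and 21976 in homozygous arrays. Col4a2 had 14188 and 11340, 10973 and 10154, and 1917 and 13088 in the same order. For both genes homozygous array 1 was far below all others and array 2 within or just above their range. The pair lies head to head on opposite strands, and their RefSeq start windows overlap by 78 bases when the 50 bases after each start are included with the 250 before it. Col4a5 and Col4a6, of the α5α5α6 network, also lie head to head, with annotated starts 1343 bases apart. Col4a5 had 7793 and 5994 in wild-type, 6969 and 7513 in heterozygous, and 3300 and 5610 in homozygous arrays, both below all others. Col4a6 had 512 and 626, 715 and 599, and 295 and 593, with only homozygous array 1 below the rest. The differences from wild-type cells were -0.89, -1.34, -0.67 and -0.44 for Col4a1, Col4a2, Col4a5 and Col4a6, and 0 of 4 passed (smallest p without adjustment 0.100).

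Set against the collagen IV chains within each array, Ddr2 stood apart from all 4 in both homozygous arrays. Relative to the wild-type mean, the log2 difference of Ddr2 from Col4a1 was 4.39 in homozygous array 1 and 2.67 in array 2, that from Col4a2 5.30 and 2.67, that from Col4a5 3.62 and 2.998, and that from Col4a6 3.51 and 2.65, while the other 4 arrays lay between -0.22 and 0.84. These are unequal differences within arrays, not a comparison of levels between genes, and no test was made of them. All 4 hold the same Ddr2 values, 2.57 and 2.71 above the wild-type mean, and so repeat the Ddr2 rise. For Ddr1 the same differences from Col4a1 were 0.53 and -0.47, from Col4a2 1.44 and -0.48, from Col4a5 -0.24 and -0.15, and from Col4a6 -0.34 and -0.50. The first pair of chains lay on either side of the wild-type mean, the second below it, and 0 of the 4 stood apart from the other arrays. For Itga1, with signals raised to background, the differences from Col4a1 were -1.02 and -0.37, and from Col4a2 -0.12 and -0.38. From Col4a5 they were -1.79 and -0.05, and from Col4a6 -1.90 and -0.40. Only those from Col4a6 lay below the other arrays in both, array 2 by little (others -0.37 to 1.08).

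Of the tested laminin receptors, Itga7 alone had both homozygous arrays below all others. Itga7, the alpha subunit of α7β1, which is best known in muscle, was at 1146 and 547 in wild-type, 779 and 899 in heterozygous, and 210 and 79.4 in homozygous arrays. Both homozygous values were below all others. The summed signal of 8 smooth muscle and pericyte markers was the lowest of all arrays in homozygous array 1 (11736) and the highest in array 2 (47087), and their part in the Itga7 values was not tested. The difference was -2.62 ± 0.59 from wild-type (adjusted p = 0.0725, limma) and -2.69 ± 0.59 from heterozygous cells (adjusted p = 0.0671, limma), and neither passed. It was called lower without homozygous array 1 (-3.32 and -3.40) and without array 2 (-1.91 and -1.99), and against heterozygous cells with the filter at the 60th percentile. Itga3, of the epithelial laminin receptor α3β1, ranged from 1041 to 1801 with the homozygous arrays at 1755 and 1073, and its difference from wild-type cells was -0.05 ± 0.44. Itga6, whose product pairs with β1 or β4, had 2009 and 2949 in wild-type, 3004 and 1749 in heterozygous, and 6619 and 1492 in homozygous arrays, which lay on opposite sides of the others. Itgb4, the hemidesmosome partner of Itga6, was below the filter, with signals from 7.10 to 28.8 and 4 of 6 arrays under background.

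Of the laminin chains, Lamb2 was low in both homozygous arrays, and Lama1 was lowest in one and highest in the other. Lamb2, the laminin β2 chain, had 520 and 296 in wild-type, 356 and 480 in heterozygous, and 128 and 262 in homozygous arrays, both below all others, and the difference from wild-type cells was -1.10 ± 0.47 (adjusted p = 0.197, limma). Lama1, the α1 chain of embryonic and some epithelial membranes, had 179.5 and 151 in wild-type, 212 and 92.2 in heterozygous, and 3.37 and 584 in homozygous arrays. The first homozygous array was under background and the second above all others, and with signals raised to background the difference from wild-type cells was -0.46. Lama4, the α4 chain of vessels and mesenchyme, had 391 and 585 in homozygous arrays against 578 to 850 in the others. Lama5, the broadly made epithelial α5 chain, had 461 and 409 against 265 to 422, and Lamc1, the common γ1 chain, 1241 and 1690 against 934 to 1318. These 3 differed from wild-type cells by -0.49 ± 0.30, 0.53 ± 0.28 and 0.37 ± 0.29, and did not pass. Of the 5 tested laminin chains 0 were called, the smallest p without adjustment being 0.0652.

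The α3 and β3 chains of the laminin that hemidesmosomes bind were dim, as was their receptor subunit Itgb4. Lama3 was under background in 6 of 6 arrays, with signals from 5.85 to 18.7, and Lamb3 in 5 of 6, with signals from 2.39 to 34.7. Lama2, the α2 chain of muscle, was under background in 3 of 6, with signals from 2.42 to 48.5. Relative to the wild-type mean, the log2 difference of Itga7 from Lamc1 was -2.06 and -3.92 in homozygous arrays 1 and 2, from Lama5 -2.52 and -3.76, from Lama4 -1.14 and -3.12, and from Lamb2 -0.29 and -2.73. In these 4 pairs the other arrays lay between -0.75 and 0.75, and both homozygous arrays lay below them. The 4 pairs hold the same Itga7 values, -1.91 and -3.32 from the wild-type mean, and so repeat the lower Itga7 signal. From Lama1 the difference, with signals raised to background, was 0.84 and -5.14, with no common direction. The difference of Itga6 from Lama1, on the same raised signals, was 4.19 in homozygous array 1 and -2.53 in array 2.

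**Figure D3:**
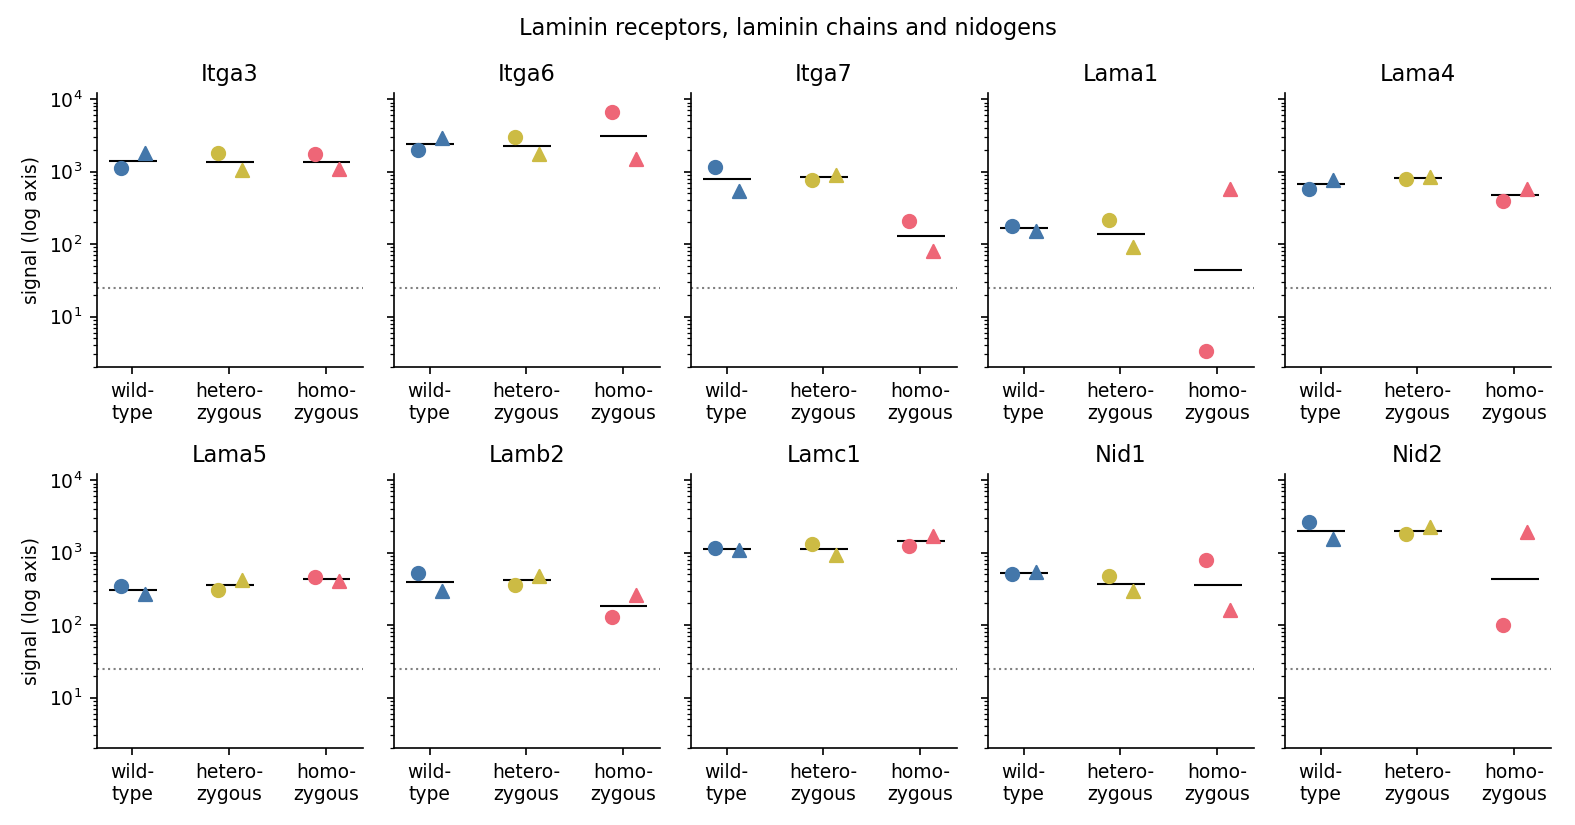
Signals (log axis) of the 3 tested laminin alpha-subunit receptors, the 5 tested laminin chains and the nidogens by p53 group; circles are replicate 1, triangles replicate 2, bars geometric means, the dotted line background. Itga7 and Lamb2 are low in both homozygous arrays, and Lama1 and Nid2 are low in homozygous array 1 alone, at 3.37 and 98.8.

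The nidogens, which link laminin to collagen IV, had opposite orders in the homozygous pair. Nid1 had 512 and 544 in wild-type, 480 and 293 in heterozygous, and 784 and 162 in homozygous arrays. Nid2 had 2668 and 1526, 1801 and 2272, and 98.8 and 1901. Array 1 was thus the higher for Nid1 and much the lower for Nid2. Hspg2, which encodes perlecan, lay at 372 and 869 in homozygous arrays, within the range of the others (357 to 1034). Agrn, which encodes agrin, had 1589 and 1063 in wild-type, 1050 and 1121 in heterozygous, and 556 and 644 in homozygous arrays, both below all others. The Agrn difference was -1.12 ± 0.28 from wild-type (adjusted p = 0.0872, limma) and -0.86 ± 0.28 from heterozygous cells (adjusted p = 0.120, limma), the smallest adjusted p of the ligands in both comparisons. Of the 4 linkers and proteoglycans 0 were called. Col18a1, whose C-terminal fragment is endostatin, had 82.5 and 140.5 in wild-type, 166 and 150 in heterozygous, and 1238 and 34.1 in homozygous arrays, and its second probe set 907 and 22.9 in the last pair. Col15a1, the related multiplexin, was below the filter, with 40.2 and 94.9 in wild-type arrays and at most 16.1 in the others.

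The integrins that recognise the tripeptide RGD in fibronectin, vitronectin and latent TGF-beta differed by subunit. Itgb8, whose αvβ8 binds latent TGF-beta, had 4373 and 4256 in wild-type, 4377 and 2468 in heterozygous, and 361 and 902 in homozygous arrays, both far below all others. The difference was -2.92 ± 0.52 from wild-type, or 7.56-fold lower (adjusted p = 0.0566, limma), and -2.53 ± 0.52 from heterozygous cells (adjusted p = 0.0625, limma), and neither passed. It was called lower against wild-type cells with the filter at the 60th percentile (adjusted p = 0.0403, limma), with signals raised to background (0.042), and without either homozygous array (0.0379 and 0.00335). Its alpha partner Itgav had 13712 and 15370 in wild-type, 14826 and 12784 in heterozygous, and 9846 and 10682 in homozygous arrays, both slightly below all others, a difference of -0.50 ± 0.22 from wild-type cells. The log2 differences of the subunits of αvβ8 were thus unequal.

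Itga5, of the fibronectin receptor α5β1, had 152 and 219 in wild-type, 224 and 211 in heterozygous, and 416 and 325 in homozygous arrays, both above all others. Its difference was 1.01 ± 0.28 from wild-type (adjusted p = 0.104, limma) and 0.76 ± 0.28 from heterozygous cells (adjusted p = 0.150, limma). Itgb3 had 62.5 and 57.8 in wild-type, 47.4 and 7.84 in heterozygous, and 595 and 63.8 in homozygous arrays. Homozygous array 2 was only just above wild-type array 1. Itgb5, the other widespread partner of αv, had 806 and 2810 in homozygous arrays against 2010 to 3303 in the rest, with array 1 alone below them. Itga8 and Itgb6 were below the filter, with signals of at most 60.4 and 37.9.

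Integrins whose main ligands lie outside the basement membrane were dim. Itga4 and Itgb7, which form a leukocyte receptor, had signals of at most 50.9 and 73.3, and Itgb7 was under background in 5 of 6 arrays. Itga9 had 52.2 to 63.5 in the wild-type and heterozygous arrays and 4.09 and 24.9 in homozygous arrays, both below all others. It was below the filter and not tested. In all, 11 members with a probe set were below the filter: Itga2, Itgb4, Itga8, Itgb6, Itga4, Itga9, Itgb7, Lama2, Lama3, Lamb3 and Col15a1.

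**Figure D4:**
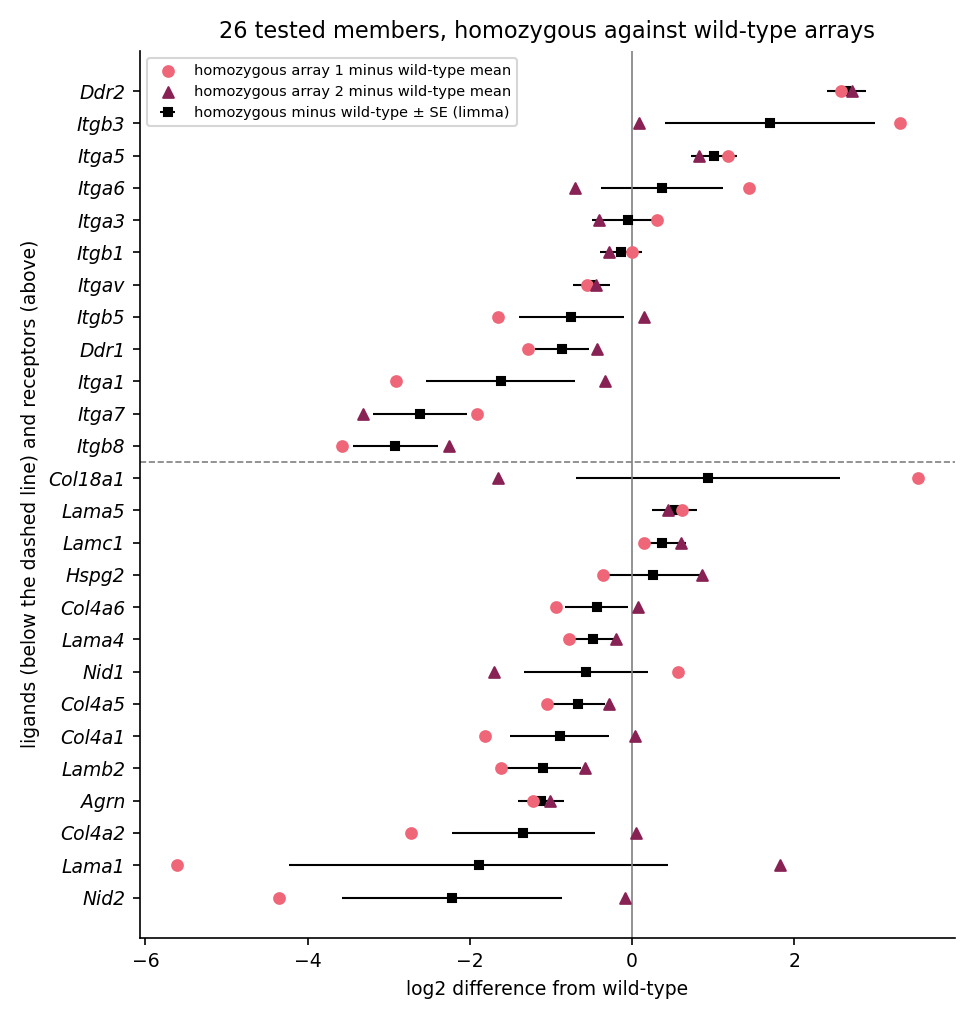
Log2 difference of the homozygous from the wild-type arrays for the 26 tested members, receptors above and ligands below the dashed line; squares with bars are the limma estimate ± SE, circles homozygous array 1 and triangles homozygous array 2, each minus the wild-type mean. The 2 arrays nearly coincide for Ddr2, Itgav, Agrn and Lama5, and lie on opposite sides of 0 or far apart for Lama1, Nid2 and Col18a1.

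The homozygous arrays disagreed by more than 2-fold in 15 of the 26 tested members, against 21% of all tested genes. Array 1 was the lower in 10 of the 15 and the higher in 5. Over all tested genes it was likewise more often the lower, in 1601 of 2290, and the higher in 689. The wild-type arrays disagreed by this much in 2 members and the heterozygous arrays in 2, beside 951 and 768 of all 10916 tested genes. The widest gaps, as array 2 minus array 1 on the log2 scale with signals raised to background, were -5.18 for Col18a1, 4.57 for Lama1, 4.27 for Nid2 and -3.22 for Itgb3. The median log2 difference from the wild-type mean was -0.996 over the 14 ligands in array 1 and -0.02 in array 2, and over the 12 receptors -0.28 and -0.37. The ligand median thus lay below the receptor median in array 1 and above it in array 2. With homozygous array 1 alone, the log2 difference from wild-type cells was 2.57 for Ddr2, -1.91 for Itga7, -3.58 for Itgb8 and 3.52 for Col18a1. With array 2 alone it was 2.71, -3.32, -2.26 and -1.66 in the same order. In fits that leave out 1 of these arrays, the single homozygous array is assumed to vary like the other groups. Against wild-type cells Ddr2, Itga7 and Itgb8 thus kept their sign with either homozygous array alone, and Col18a1 did not. Against heterozygous cells the differences with array 1 and array 2 alone were 2.25 and 2.39 for Ddr2, and -1.99 and -3.40 for Itga7. For Col18a1 they were 2.97 and -2.21.

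Markers of other cells also differed between the homozygous arrays. Of 9 fibroblast and mesenchymal markers, 1 (Pdgfra) fell and 0 rose in homozygous against wild-type cells, with the sums and median given beside Ddr2. Over all genes 2.25% were called lower and 0.412% higher in this comparison. Col3a1 of this list, the fibrillar collagen III chain, was at 255 in array 1 and 31824 in array 2, the same order as Col4a1, Col4a2 and Nid2. Of the smooth muscle and pericyte markers 0 of 5 tested were called, and the summed signal outside the homozygous arrays was 21177 to 33739. The part of these cells in the values of the collagen IV chains, laminins and nidogens was not tested, and fewer cells of a type cannot be told apart from less RNA per cell.

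Beside the lower signals of Itgb8 and Itga7, most but not all tested markers of epithelium, vessels and macrophages were lower. In homozygous against wild-type cells 2 of 16 surface epithelium markers fell (Upk1b and Epcam) and 0 rose. Over all genes 2.25% were called lower and 0.412% higher. Of the 16 differences 15 were negative and 1, that of Krt18, positive. Both homozygous arrays lay below all 4 others for 13 of the 16. Krt18 had 25436 and 5623 in homozygous arrays against 6247 to 12233 in the others. Of 10 endothelial markers 4 were tested, with 3 differences negative and 1 positive, and 3 fell (Kdr, Icam2 and Esam). Their summed signal was 2044 and 2930 in homozygous against 9233 to 11082 in the other arrays. Under background in both homozygous arrays were 6 of the 10, Pecam1, Tek, Tie1, Emcn, Cldn5 and Icam2, with Tie1 so in all 6 arrays. Both homozygous arrays lay below all 4 others for 4 of the 10 markers. For 5 both were within the range of the others, and for 1 a homozygous array was above it. Of 12 macrophage markers 9 were tested, with 7 differences negative and 2 positive, and 3 fell (Lyz2, Mpeg1 and Ctss). Their sums were 820 and 930 against 2590 to 5576, and Lyz2, Ctss, Ptprc and Tyrobp were under background in both homozygous arrays. Both homozygous arrays lay below all 4 others for 8 of the 12 macrophage markers. For 2 they lay on opposite sides of the others, for 1 within their range, and for 1 a single array was below it. Of 10 granulosa and theca markers 5 were tested and 0 called against wild-type cells, with sums of 770 and 2772 against 3502 to 8470. The part of these cells in the results was not tested.

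Among other genes of the same machinery, Bcam, Egfl6 and Pxn passed the test in at least 1 comparison, and all 3 fell. Of 53 such genes 50 were on the array and 44 tested. Against wild-type cells 2 fell (4.55%) and 0 rose, beside 2.25% of all genes called lower and 0.412% higher. Against heterozygous cells 3 fell (6.82%) and 0 rose, beside 3.22% and 0.87%. The median log2 difference of the 44 was -0.32 and -0.42, beside -0.09 and -0.08 for all genes, and with centred arrays 0.05 and -0.12, beside 0.28 and 0.21. Bcam, a laminin α5 receptor of the immunoglobulin family, had 489 and 750 in wild-type, 751 and 914 in heterozygous, and 108 and 104 in homozygous arrays. It fell by 2.52 ± 0.29 against wild-type and by 2.97 ± 0.29 against heterozygous cells (adjusted p = 0.0293 and 0.0194, limma). With centred arrays the Bcam call against wild-type cells ended (adjusted p = 0.0597, limma). Egfl6, a secreted RGD-containing protein of basement membranes, had 879 and 1139 in wild-type, 1135 and 1461 in heterozygous, and 15.2 and 60.04 in homozygous arrays, the first under background. It fell by 5.05 ± 0.67 against wild-type and decreased by 5.42 ± 0.67 against heterozygous cells (adjusted p = 0.0355 and 0.0301, limma), and with signals raised to background the differences were -4.71 and -5.07. Pxn, paxillin, an adaptor of focal adhesions, had 6720 and 6993 in wild-type, 7525 and 6722 in heterozygous, and 2634 and 2930 in homozygous arrays. It fell by 1.36 ± 0.22 against heterozygous cells (adjusted p = 0.0422, limma), while against wild-type cells the difference of -1.30 did not pass (adjusted p = 0.0502, limma). With centred arrays the Pxn call against heterozygous cells ended (adjusted p = 0.0872, limma), and against wild-type cells Pxn passed with quantile normalization (0.0496) and with signals raised to background (0.0393). With any 1 wild-type or heterozygous array left out, 0 genes of the array were called against wild-type cells.

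Several uncalled genes of this list also differed between the homozygous arrays. Col4a3 and Col4a4, chains of the α3α4α5 network, were at 2.42 and 240 and at 10.98 and 301 in homozygous arrays 1 and 2, against 114 to 162 and 335 to 878 in the others. Dag1, dystroglycan, had 2805 and 8189 against 10765 to 11320. Npnt, nephronectin, a ligand of α8β1, had 1322 and 68.0 against 72.9 to 111. Fbln2, fibulin-2, had 3360 and 11012 against 1626 to 2284, both above the others, and Lamb1, the β1 chain that is not among the members, 4241 and 7909 against 3854 to 4599. The differences from wild-type cells were 1.87 ± 0.57 for Fbln2 and 0.59 ± 0.35 for Lamb1 (adjusted p = 0.116 and 0.316, limma).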

How the data were processed

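Messenger RNA was measured on 6 single-colour Affymetrix mouse arrays, 2 in each of 3 groups taken from the sample titles. The authors deposited linear probe set intensities. The submitters' processing notes name RMA, with no version, but the intensities have different quantiles in each array and the same mean over the middle 96% of probe sets, as MAS 5.0 signals do. Log2 was taken with no offset, normalisation or background step, so dim genes spread widely. No batch is named in the sources used here. Precision is limited by the number of arrays.

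Of 45101 probe sets, 34958 named 1 symbol, 932 several and 9211 none; the last 2 kinds were not used. Symbols were updated by Entrez identifier through a RefSeq table (34754 matched). Genes at or above the 40th percentile of mean signal were tested with limma 3.58.1 in R 4.3.3: 3 group means fitted to all 6 arrays, empirical Bayes moderation (3 residual and 2.26 prior degrees of freedom), and Benjamini-Hochberg adjustment over 10916 genes at 0.05. The procedure was tested on simulated data. Python 3.11.15 with matplotlib 3.10.9 drew the plots. Members and lists were chosen with earlier results of these data known. The text names all members and, of the pathway list, called genes and up to 6 others. Full values are due, by the rule, for members called or with both homozygous arrays beyond the other 4 by at least 1 (log2), and group values for receptors and ligands set side by side; the other array values were added after they were seen. Alternatives covered probe set choice, filters, scaling, a floor at background, spread, samples fitted, the replicate block and arrays left out.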

Additional observations from a re-analysis of the deposited data

How the results depend on the processing

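The 0 calls between heterozygous and wild-type cells stayed at 0 for all genes and for members in every alternative run. The number of genes called in homozygous against wild-type cells, 291, became 190 with the mean of all probe sets of a gene, 605 with signals raised to background, and 0 with no filter, with only the 2 groups compared or with wild-type array 2 and heterozygous array 1 (the 2 closest arrays) left out together. Against heterozygous cells the 446 calls became 281, 731, 17, 9 and 0 in the same order, 274 with centred arrays and 293 with a spread differing between groups. With 1 array left out, calls ranged from 0 (without any wild-type or heterozygous array) to 2663 against wild-type cells, and from 0 to 2841 against heterozygous cells, the highest counts being those without homozygous array 2. The 1 member called in each comparison became 0 with the mean of probe sets, no filter, only the 2 groups compared, or those 2 arrays left out. It became 2 and 3 with the filter at the 60th percentile, 2 against wild-type cells with signals raised to background, and 0 to 12 and 0 to 14 with 1 array left out. The members beyond the other 4 arrays numbered 1 in the higher direction with quantile normalization or the mean of probe sets, and 5 in the lower direction without those 2 arrays.

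With the labels' replicate number as a block (replicate block), 0 genes and 0 members were called against wild-type cells and 19 genes and 0 members against heterozygous cells. Nothing says that equal numbers mark a shared source: deviations of same-numbered arrays correlated at -0.30 for wild-type and heterozygous, -0.10 for wild-type and homozygous, and 0.15 for heterozygous and homozygous pairs. The crossed pairing of wild-type and heterozygous arrays, chosen after seeing the data as were the alternatives for members beyond the other 4 arrays, gave 0 calls.

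The cause of these changes was not tested. Centring changed the sign of Itga3 and Itgb1 (both uncalled) against wild-type cells, to 0.32 and 0.23.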
